A study of Mus musculus with 24 samples.

Results

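Whether epigallocatechin gallate (EGCG), the main catechin of green tea, acted differently on white adipose cells early and late in differentiation was examined in 12 of the 24 RNA-seq libraries of the series. These were all libraries of cultured stromal vascular fraction (SVF) cells from inguinal white adipose tissue (WAT) of C57BL/6 mice that were 6 weeks old. They formed 4 groups of 3: WAT cells given the solvent DMSO (control) and WAT cells given EGCG, each collected on day 4 and on day 8. The other 12 libraries were SVF cells of interscapular brown adipose tissue (BAT) from the same design and are used here only for comparison. All cells were induced with a cocktail of insulin, dexamethasone and IBMX, which was in the medium until day 4, and were then kept in a medium with insulin and T3 until day 8. Day and medium therefore cannot be told apart, and the dose of EGCG is not given in the labels. The SVF is a mixture of progenitors with vascular, immune and other cells and was not sorted according to the labels, so that in these bulk samples fewer cells of a type and less RNA per cell cannot be told apart. The quantity studied is the interaction: the EGCG minus control difference on day 8, minus the same difference on day 4, on the scale log2(FPKM + 1), where FPKM is the fragments on a gene divided by its length and by the depth of the library. A positive interaction means that EGCG cells stood higher against their controls on day 8 than on day 4, whatever the sign of either difference.

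In culture, SVF cells from WAT first pass through an early stage in which the induction cocktail raises the CEBP factors and then PPARG, the master regulator of fat cell formation. In the later stage they fill with lipid and switch on lipogenic enzymes, lipid droplet proteins and secreted adipokines, while cell division recedes. EGCG is a polyphenol that oxidises readily, binds iron and many proteins, and is known to hinder adipogenesis in culture. An effect that reverses, appears or fades between the days can be carried by the EGCG cells, by the control cells or by both, so the levels in all 4 groups are given.

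As deposited, the libraries held 39858181 to 52009056 reads on genes in replicates 1 and 2 of WAT cells and 16392420 to 41675648 in replicate 3. At these depths 3 reads on a gene of 2 kb correspond to 0.0288 to 0.0915 FPKM. Replicates 1 and 2 lie in one table and replicate 3 in another, which was scaled separately, and the means ± SD below (n = 3) are taken across both. In WAT day 8 EGCG replicate 3, 61.0% of the reads lay on 5 genes (Prl3d1, 1700007K09Rik, 4930555F03Rik, 6030405A18Rik and Gm4675), on which no other library held more than 10 reads. These genes were left out everywhere and that library was rescaled to its other 16249394 reads, so that every value of it below is a rescaled one. These are the fewest reads of any WAT library, so that 3 reads correspond there to slightly more than the range above. Among the groups the WAT day 8 controls were the most variable: the SD between replicates 1 and 2 over expressed genes was 0.139 on the log2 scale, against 0.0651 to 0.0806 in the other 3 groups. Mature adipocyte markers fitted the labels, since 28 such genes summed to 5893 to 7061 FPKM in day 4 controls and 8784 to 9979 FPKM in day 8 controls. The sum of 23 adipose progenitor genes was also higher on day 8. It was 1035 to 1057 FPKM in day 4 controls and 1734 to 1862 FPKM in day 8 controls, and with EGCG 964 to 1001 and 1689 to 1782 FPKM. The labels do not say that replicates came from separate cultures, so p-values measure the spread between these samples only, which may be technical.

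The effect of EGCG depended on the day for much of the transcriptome. Of 13263 genes tested, 7243 (54.6%) had an interaction with an adjusted p under 0.05 in limma; it was positive for 4449 (33.5% of the genes tested) and negative for 2794 (21.1%). EGCG against control was called for 7955 genes (60.0%) on day 4 and for 9034 (68.1%) on day 8. With EGCG, 38.0% of the genes tested were called higher and 22.0% lower on day 4, and 48.2% higher and 19.9% lower on day 8. The interaction genes were divided by what happened on each day. In 2279 genes (17.2% of the genes tested) the effect appeared, being called on day 8 and not on day 4. In 1296 genes (9.77%) it faded, being called on day 4 and not on day 8. In 1236 genes (9.32%) it reversed, being called on both days with opposite signs. A further 1665 genes changed in the same direction on both days and more on day 8 (grew), 673 changed less on day 8 (shrank), and 94 were called on neither day. The split by sign depends on scaling: with median-ratio scaling, which sets the median change to about 0, 3541 genes had a positive and 3422 a negative interaction (50.9% positive in place of 61.4%). The median day 8 change of all genes was 0.17 without and 0.01 with that scaling, and no gene called in both was called in opposite directions.

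**Figure D1:**
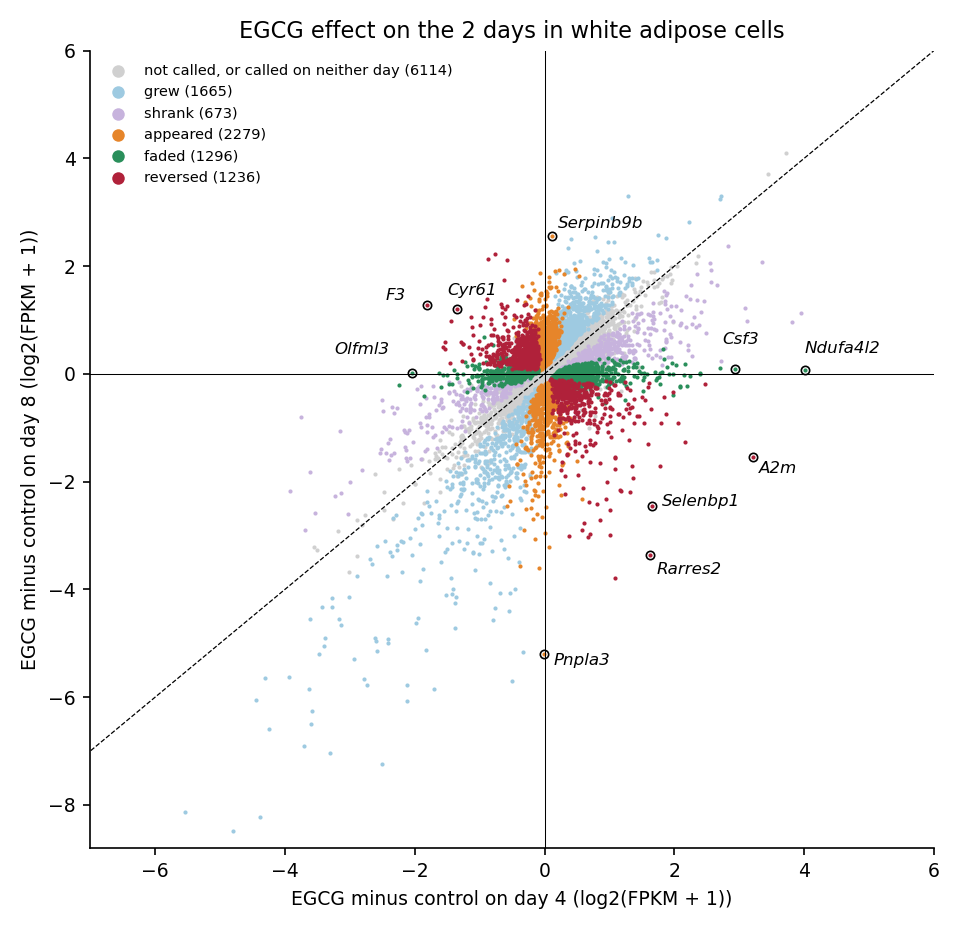
Each point is 1 of the 13263 genes tested, with the EGCG minus control difference on day 4 on the x axis and on day 8 on the y axis (both log2(FPKM + 1)) and the class in colour. Points on the dashed line had the same effect on both days; reversed genes lie in the upper left and lower right, faded genes along the x axis and appeared genes along the y axis, with Pnpla3 at -5.21 on day 8 and Ndufa4l2 at 4.02 on day 4.

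Many of these changes were small, and a change close to 0 can move a gene from 1 class to another. Of the 1236 reversed genes 60.2% were also classed as reversed with median-ratio scaling, against 58.9% of the appeared and 49.1% of the faded genes. The description therefore rests on strong members. A strong reversal was at least 2-fold on both days, a strong appearance had a log2 change of at least 1 in size on day 8 and under 0.5 on day 4, and a strong fading had the opposite. There were 23 strong reversals, 204 strong appearances and 113 strong fadings. Without WAT day 8 control replicate 2 the strong appearances numbered 118. Of the 5636 genes called from replicates 1 and 2 alone, 95.0% had the same sign of interaction in replicate 3, against 80.0% of all genes tested in both.

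Among the strong reversals, 3 genes were lower with EGCG on day 4 and higher on day 8. F3 encodes tissue factor, the starter of the extrinsic clotting cascade and a surface marker of an adipose progenitor population that restrains adipogenesis. F3 (ENSMUSG00000028128.8, chr3:121426455-121437970 on mm9) stood at 311, 291 and 269 FPKM in the day 4 controls and at 79.5, 86.2 and 80.9 FPKM in the day 4 EGCG cells. On day 8 it stood at 268, 156 and 191 FPKM in controls and at 480, 497 and 482 FPKM in EGCG cells. The groups did not overlap on either day and their order changed. The log2 difference went from -1.81 ± 0.15 (SE) to 1.28 ± 0.15, an interaction of 3.09 ± 0.21 (adjusted p = 9.74e-07).

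Cyr61 (chr3:145309935-145312949), a secreted matrix protein of the CCN family and a common target of YAP and TEAD factors, behaved alike in direction. It was measured at 474, 441 and 431 FPKM in day 4 controls and at 172, 178 and 176 FPKM in day 4 EGCG cells. On day 8 the controls were at 201, 131 and 158 FPKM and the EGCG cells at 377, 355 and 388 FPKM (interaction 2.56 ± 0.17, adjusted p = 8.82e-07). The means of both treatments differed between the days, in opposite directions. The third, Mxra7, a matrix remodelling-associated transmembrane protein, went from 59.0 ± 7.86 FPKM in controls and 26.2 ± 1.96 in EGCG cells on day 4 to 43.0 ± 1.71 and 90.7 ± 0.834 on day 8 (interaction 2.2 ± 0.10).

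The other 20 strong reversals ran the opposite way, higher with EGCG on day 4 and lower on day 8, whereas of all 1236 reversed genes 791 went from lower to higher and 445 from higher to lower. The largest was Rarres2 (ENSMUSG00000009281.4, chr6:48519697-48522669), which encodes chemerin, an adipokine and chemoattractant that rises as fat cells mature. Rarres2 was at 17.1, 18.9 and 32.7 FPKM in day 4 controls and at 69.4, 53.1 and 92.1 FPKM with EGCG. On day 8 it was at 233, 209 and 285 FPKM in controls and at 18.2, 20.8 and 29.5 FPKM with EGCG (interaction -4.99 ± 0.16, adjusted p = 1.09e-08). The day 8 controls were the highest of the 4 groups, and the day 8 EGCG cells overlapped the day 4 controls. The gene overlaps Lrrc61, and reads could not be assigned between them here.

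A2m (ENSMUSG00000030111.8, chr6:121586191-121629255), the protease inhibitor alpha-2-macroglobulin, reversed mainly through the EGCG cells. It was at 19.5, 22.3 and 22.8 FPKM in day 4 controls and at 215, 197 and 209 FPKM in day 4 EGCG cells. On day 8 the controls held 54.0, 29.6 and 31.7 FPKM and the EGCG cells 12.1, 12.5 and 11.5 FPKM. The day 4 EGCG group was the highest of the 4 and the day 8 EGCG group the lowest (interaction -4.75 ± 0.24, adjusted p = 1.96e-07).

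Serpina3m, a serine protease inhibitor of a multigene cluster whose members can share reads, had 14.6, 14.3 and 19.5 FPKM in day 4 controls and 37.3, 33.4 and 34.7 FPKM with EGCG. On day 8 it had 35.1, 75.7 and 72.5 FPKM in controls and 3.27, 3.63 and 2.86 FPKM with EGCG (interaction -4.88 ± 0.33). Selenbp1, a methanethiol oxidase abundant in mature fat cells, went in controls from 13.9 ± 2.46 to 64.6 ± 13.9 FPKM and in EGCG cells from 45.5 ± 4.56 to 10.8 ± 0.664 FPKM (interaction -4.11 ± 0.19). In both genes control replicate 1 of day 8 was the lowest of its group, and each day still separated EGCG from control.

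The remaining 16 genes of this kind were F13a1, Ly6c1, E030010N08Rik, Gbe1, 6030408B16Rik, Acer2, Ppp1r3c, Ccl6, Igfbp3, Pygl, Ppl, Clu, Stc1, Slfn2, Marco and Apod, listed after their values were seen since they complete the class. Among them were 3 proteins of glycogen handling. Gbe1, the glycogen branching enzyme, was at 6.34, 6.04 and 7.30 FPKM in day 4 controls against 27.8, 22.2 and 25.4 FPKM with EGCG, and at 27.2, 35.7 and 32.4 FPKM in day 8 controls against 8.72, 9.25 and 8.93 FPKM with EGCG (interaction -3.50 ± 0.14). Pygl, the liver isoform of glycogen phosphorylase, went in controls from 6.78 ± 0.566 to 63.6 ± 5.83 FPKM and in EGCG cells only from 22.4 ± 1.41 to 25.1 ± 1.11 FPKM. Ppp1r3c, which brings protein phosphatase 1 to glycogen, went in EGCG cells from 20.0 ± 0.816 to 1.89 ± 0.409 FPKM between the days, with controls at 8.38 ± 0.603 and 11.9 ± 2.36 FPKM. Igfbp3, a carrier of insulin-like growth factors, was at 187, 191 and 202 FPKM in day 4 controls against 519, 443 and 533 FPKM with EGCG, and at 361, 573 and 624 FPKM in day 8 controls against 155, 150 and 158 FPKM with EGCG (interaction -3.06 ± 0.20). Each of these groups was separate from its control group on both days.

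Macrophage markers moved in the same way as this last set. Of 15 tested markers 15 had a negative interaction and 13 were reversed, higher with EGCG on day 4 and lower on day 8. Their median log2 change was 0.68 on day 4 and -1.14 on day 8. Over all genes tested, 21.1% had a negative interaction and 9.32% were reversed in either direction. The exceptions to reversal were Cd68, the lysosomal marker, and Fcgr1, a receptor for immunoglobulin, whose effects appeared on day 8. The summed level of the 19 markers was 93.2 to 103 FPKM in day 4 controls, 218 to 237 in day 4 EGCG cells, 177 to 227 in day 8 controls and 71.5 to 82.4 in day 8 EGCG cells, with 1 marker at 0 in the day 4 control and day 8 EGCG groups and none at 0 in the other groups. Lyz2, lysozyme of myeloid cells, made up the largest part, with means of 57.7, 159, 77.7 and 44.8 FPKM in the same order. Ccl6, Marco, F13a1 and Ly6c1 of the reversed set are genes that macrophages or other blood-borne cells can express, and the part of such cells in the reversals was not tested. The complement list had 12 negative interactions among 14 tested genes and no positive one (21.1% and 33.5% of all genes). Its C1q subunits are among the macrophage markers. C1qa, a C1q chain, was at 7.38, 7.24 and 9.15 FPKM in day 4 controls against 14.1, 13.2 and 12.4 with EGCG, and at 17.3, 26.5 and 24 in day 8 controls against 1.61, 1.79 and 2.19 with EGCG. C3 and C4b, which fat cells and fibroblasts also make, were lower with EGCG on both days: C4b went in controls from 10.9 ± 0.660 to 338 ± 30.9 FPKM and in EGCG cells from 8.01 ± 0.711 to 29.0 ± 2.48 FPKM.

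**Figure D2:**
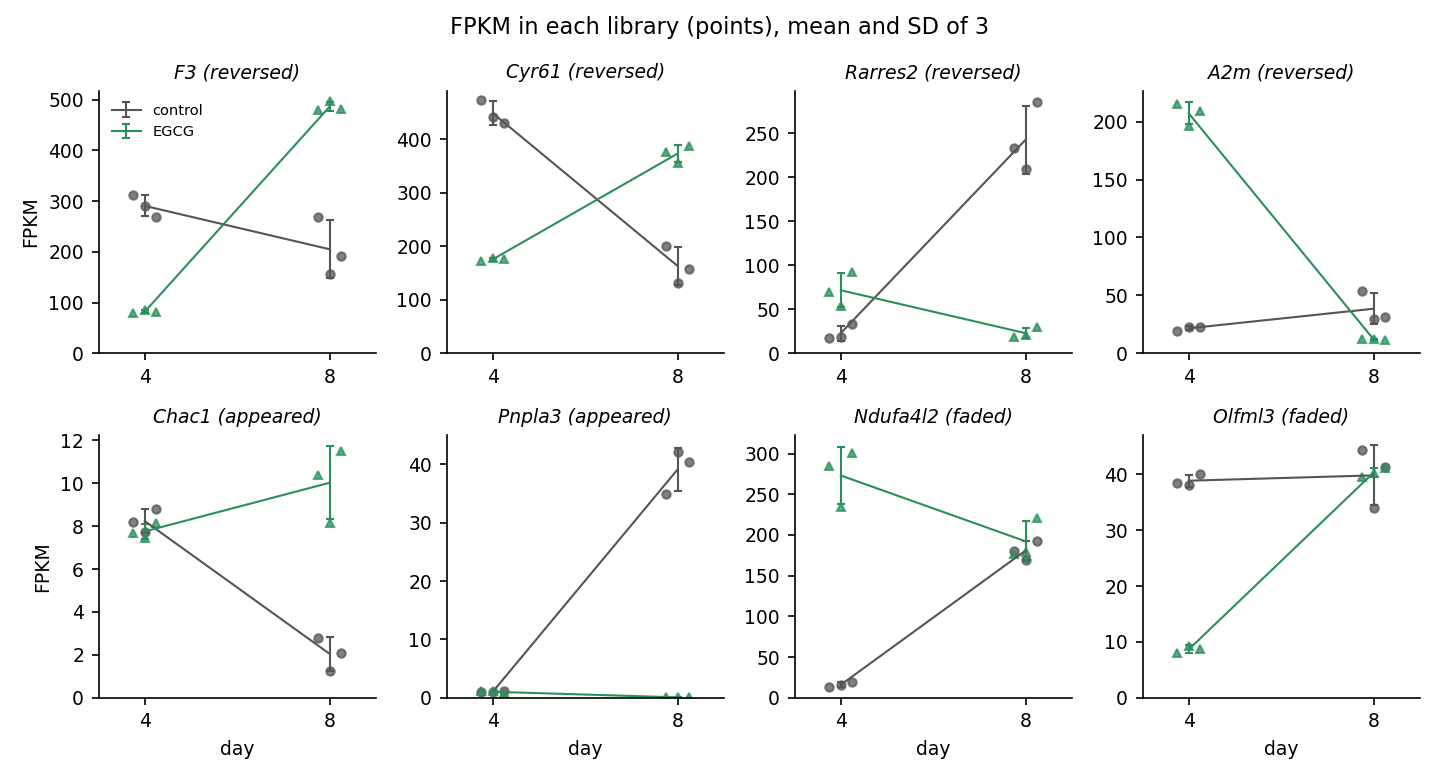
FPKM in each WAT library on day 4 and day 8 (points; grey circles control, green triangles EGCG), with the mean and SD of 3 libraries joined by lines, for 4 reversed, 2 appeared and 2 faded genes. The lines cross for F3, Cyr61, Rarres2 and A2m, open from a shared start for Chac1 and Pnpla3, and meet on day 8 for Ndufa4l2 and Olfml3.

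Strong effects that appeared on day 8 were more often decreases (130 genes) than increases (74), while the whole class leaned the other way, with 1686 positive and 593 negative interactions. In 111 of the 130 decreases the larger change between days lay in the control cells, against 27 of the 74 increases. Pnpla3 (ENSMUSG00000041653.4, chr15:83998246-84019942), a lipid droplet protein with lipase and acyltransferase activity that insulin and sugar feeding induce, had the largest interaction of the class. It was at 1.04, 0.920 and 1.18 FPKM in day 4 controls and at 1.09, 1.15 and 0.882 FPKM in day 4 EGCG cells. On day 8 controls reached 34.9, 42.1 and 40.4 FPKM while EGCG cells held 0.104, 0.0595 and 0.0796 FPKM, which rest on 25, 11 and 6 reads. The treatments overlapped on day 4 and not on day 8 (interaction -5.20 ± 0.12, adjusted p = 2.22e-09).

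Reg1, a secreted C-type lectin best known from the pancreas, was at 46.8, 22.9 and 30.6 FPKM in day 8 controls and at no more than 2.21 FPKM in any library of the other 3 groups (interaction -3.18 ± 0.31). Timp4, an inhibitor of metalloproteinases enriched in fat tissue, went in controls from 0.642 ± 0.255 to 13.9 ± 3.33 FPKM. In EGCG cells it lay at 0.529 ± 0.0417 and 0.208 ± 0.0811 FPKM (interaction -3.51 ± 0.21). It passed the filter of at least 1 FPKM in at least 3 libraries only through the day 8 controls, so its interaction is a description. Timp4 lies within Syn2, so that its reads may be shared.

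In the lipogenesis list 14 of 15 genes had a negative interaction and none a positive one (21.1% and 33.5% of all genes). The median log2 changes were -0.97 on day 4 and -2.69 on day 8. For 5 of the genes the effect appeared, where it did in 17.2% of all genes: Acly, Elovl6, Slc25a1, Scd2 and Elovl5. Acly, ATP citrate lyase, which makes cytosolic acetyl-CoA for fatty acid synthesis, was at 73.1, 71.3 and 77.8 FPKM in day 4 controls and 72.9, 75 and 69.4 FPKM in EGCG cells. On day 8 it was at 227, 481 and 392 FPKM in controls and 56.2, 53.6 and 54.4 FPKM in EGCG cells (interaction -2.62 ± 0.28, adjusted p = 2.53e-05). By contrast Scd1, the stearoyl-CoA desaturase, was lower with EGCG on both days: 535 ± 27.8 against 123 ± 11.4 FPKM on day 4 and 4088 ± 444 against 59.4 ± 1.74 FPKM on day 8. Fasn, the fatty acid synthase, moved likewise (-1.36 on day 4, -4.14 on day 8). Gpam, the first acyltransferase of glycerolipid synthesis, was the 1 gene not called, with -2.0 and -2.04.

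The strong increases that appeared on day 8 were led by Serpinb9b, Plk2, Chac1 and Mical2. Serpinb9b (chr13:33119285-33133753), a granzyme inhibitor of a mouse gene cluster, was below 0.68 FPKM in all 9 libraries of the other groups. In day 8 EGCG cells it was at 7.74, 7.5 and 8.74 FPKM (interaction 2.46 ± 0.14). It passed the filter only through those cells, so its interaction is a description and no test support. Mical2, a monooxygenase that takes actin filaments apart, was at 17.3, 17.6 and 14.2 FPKM in day 4 controls and 13.2, 15.5 and 13.7 FPKM with EGCG, then at 13.0, 9.16 and 9.48 FPKM in controls and 37.3, 35.6 and 34.1 FPKM with EGCG on day 8 (interaction 1.88 ± 0.15). In both genes the larger difference between the days lay in the EGCG cells, and in Plk2 and Chac1 it lay in the controls.

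Chac1 (chr2:119176965-119180117), an enzyme that breaks down glutathione and a target of the stress factor ATF4, was at 8.2, 7.71 and 8.79 FPKM in day 4 controls and at 7.66, 7.46 and 8.15 FPKM in day 4 EGCG cells. On day 8 the controls held 2.80, 1.25 and 2.10 FPKM and the EGCG cells 10.4, 8.17 and 11.5 FPKM (interaction 1.95 ± 0.22, adjusted p = 3.23e-05). Plk2, a polo-like kinase induced by stress and growth signals, went in controls from 47.9 ± 4.60 to 10.5 ± 4.37 FPKM and in EGCG cells from 37.3 ± 1.54 to 33.4 ± 3.24 FPKM. Of the integrated stress response list, 12 of 26 genes had a positive and 4 a negative interaction, where 33.5% and 21.1% of all genes had. Atf4 itself, Phgdh and Mthfd2 of serine and folate metabolism, and Chac1 appeared as increases, while Asns, Psat1 and Slc7a5 were not called (interactions of -0.05, 0.03 and -0.08). With quantile normalization the list stood at 8 positive and 6 negative.

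Effects that faded were mostly increases on day 4: of 113 strong members 81 were higher with EGCG on day 4 and 32 were lower. Ndufa4l2 (ENSMUSG00000040280.9, chr10:126951995-126954208), a protein of the mitochondrial electron transport chain that low oxygen induces, led them. It was at 13.4, 15.3 and 19.3 FPKM in day 4 controls and at 285, 234 and 301 FPKM in day 4 EGCG cells. On day 8 it was at 180, 170 and 193 FPKM in controls and at 177, 179 and 221 FPKM in EGCG cells. The groups did not overlap on day 4 and overlapped on day 8, taking the log2 difference from 4.02 ± 0.08 to 0.08 ± 0.08 (interaction -3.93 ± 0.11, adjusted p = 6.28e-09). Ndufa4l2 lies next to Shmt2 in overlapping annotation, whose own interaction was 0.27.

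Genes of the hypoxia response were raised by EGCG mainly on day 4. Under normal oxygen, EGLN prolyl hydroxylases, which need iron, mark HIF factors for destruction; when they are inactive, HIF binds the short sequence ACGTG near its targets, among them glycolytic enzymes, Vegfa and, as a feedback, Egln3. Of the 26 tested genes of the list, which also holds the metallothioneins Mt1 and Mt2, 24 had a negative and none a positive interaction. The shares over all genes were 21.1% and 33.5%. On day 4, 25 of the 26 were called higher with EGCG and none lower, where 38.0% and 22.0% of all genes were. On day 8, 12 were called higher, a share near the 48.2% of all genes, and 7 lower, where 19.9% of all genes were. The median log2 change was 1.46 on day 4 and 0.12 on day 8, and -0.09 on day 8 with median-ratio scaling. The median day 8 minus day 4 change was 0.59 in controls and -0.56 in EGCG cells. The effect shrank in 10 of the genes, faded in 7 and reversed in 6, and that of Pfkfb3 appeared, with 0.23 on day 4 and -0.87 on day 8.

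The sequences upstream of 4 of these genes are shown because they hold the letters that HIF is known to bind. They are the 250 bases before the start of each gene, read from RefSeq for assembly GRCm38.p6 in the direction of transcription, with each ACGTG or its reverse complement CACGT in capitals. All 4 genes lie on the minus strand, Ddit4 at chr10:59951771-59952020, Egln3 at chr12:54203875-54204124, Bnip3 at chr7:138909507-138909756 and Ankrd37 at chr8:45999851-46000100 of that assembly, which is not the assembly of the expression tables.
Ddit4: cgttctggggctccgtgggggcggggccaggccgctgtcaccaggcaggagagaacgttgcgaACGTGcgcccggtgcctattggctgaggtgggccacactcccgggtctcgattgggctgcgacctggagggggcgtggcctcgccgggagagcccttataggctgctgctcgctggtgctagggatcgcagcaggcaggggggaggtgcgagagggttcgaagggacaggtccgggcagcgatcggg
Egln3: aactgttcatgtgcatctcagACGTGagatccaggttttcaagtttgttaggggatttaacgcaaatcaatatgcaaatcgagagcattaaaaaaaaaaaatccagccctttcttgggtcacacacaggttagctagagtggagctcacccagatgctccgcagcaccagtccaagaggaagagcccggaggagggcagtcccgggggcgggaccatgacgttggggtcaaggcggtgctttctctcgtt
Bnip3: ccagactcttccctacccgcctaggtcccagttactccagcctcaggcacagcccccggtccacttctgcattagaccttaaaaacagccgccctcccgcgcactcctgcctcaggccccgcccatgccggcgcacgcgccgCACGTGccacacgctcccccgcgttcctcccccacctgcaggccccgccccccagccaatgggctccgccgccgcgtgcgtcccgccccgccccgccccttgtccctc
Ankrd37: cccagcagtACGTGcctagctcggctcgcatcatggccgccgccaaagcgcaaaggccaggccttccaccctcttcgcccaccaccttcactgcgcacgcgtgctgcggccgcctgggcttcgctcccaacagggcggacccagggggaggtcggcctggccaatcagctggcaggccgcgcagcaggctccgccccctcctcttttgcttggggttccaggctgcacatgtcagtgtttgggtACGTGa
The 2 matches in Bnip3 overlap on opposite strands as 1 palindrome, and those in Ankrd37 begin 241 and 6 bases before the start. Of the 26 genes 23 were found in the promoter table, and 16 of these (69.6%) held at least 1 match in a 250-base window, against 18.5% of all 27025 genes in the table. The list was made of genes already known for the hypoxia response, so a high share was likely beforehand and is no support for HIF acting in these cells. The comparison covers all genes with a promoter entry, not only the genes tested here. A match describes the sequence and does not show binding. Ndufa4l2, Ero1l and Bhlhe40 had no entry.

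Ddit4, an inhibitor of mTORC1 signalling that stress and glucocorticoids also raise, was at 70.6, 67.2 and 63.5 FPKM in day 4 controls and 316, 292 and 244 FPKM with EGCG, then at 91.4, 193 and 129 FPKM in day 8 controls and 75.6, 74.4 and 60.1 FPKM with EGCG (interaction -2.97 ± 0.28). Egln3, the HIF hydroxylase, was at 1.93, 1.61 and 2.02 FPKM in day 4 controls and 15.6, 13.1 and 15.8 FPKM with EGCG. On day 8 its levels were 9.58, 10.3 and 10.9 FPKM in controls and 8.60, 8.42 and 9.73 FPKM with EGCG, so that the groups overlapped, and the difference was -0.18 ± 0.06. Bnip3, a mitochondrial protein of mitophagy, was at 56.4 ± 4.91 and 208 ± 13.1 FPKM on day 4 and at 214 ± 33.9 and 127 ± 4.02 FPKM on day 8 in controls and EGCG cells (interaction -2.61 ± 0.14). Vegfa, the endothelial growth factor, was 71.2 ± 3.19 FPKM in controls and 202 ± 11.6 with EGCG on day 4 and 92.4 ± 8.50 and 92.9 ± 2.75 on day 8, the larger difference between the days being in the EGCG cells. Slc2a1 and Hk2, the glucose transporter GLUT1 and a hexokinase, kept most of their rise: Slc2a1 went from 2.26 to 1.65, and Hk2 from 1.21 to 1.17 with no call for the interaction (-0.04 ± 0.05).

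**Figure D3:**
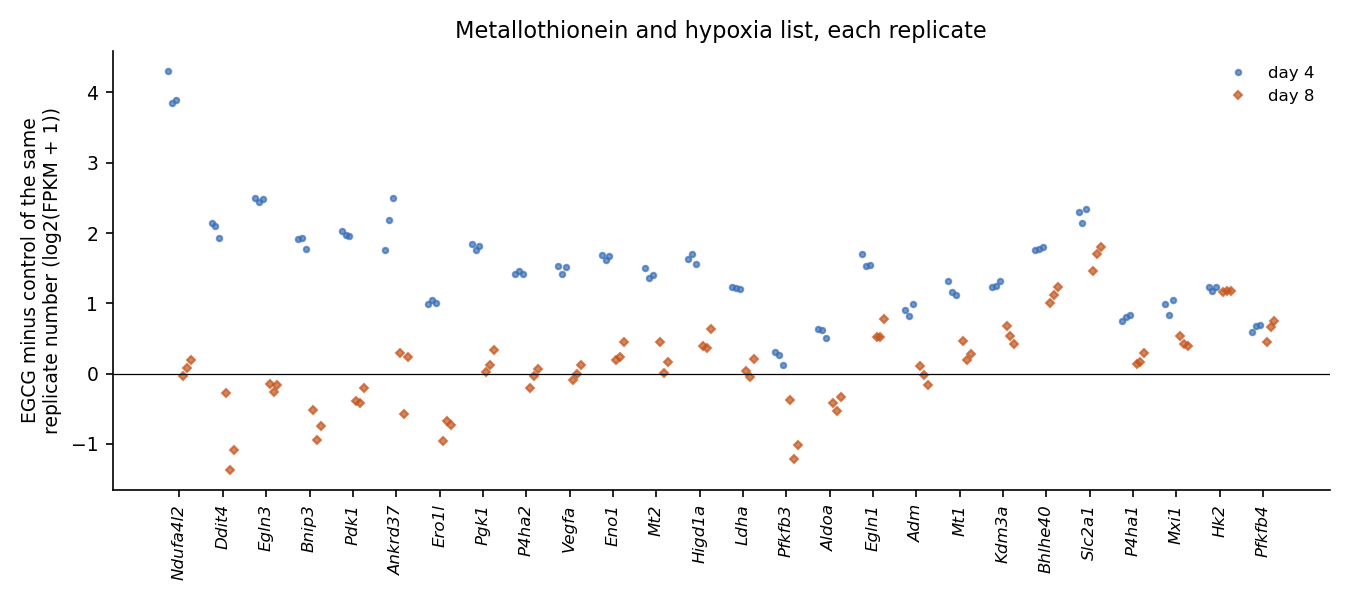
The EGCG minus control difference (log2(FPKM + 1), y axis) of each of the 26 tested genes of the metallothionein and hypoxia list (x axis, ordered by interaction), taken for display between libraries that share replicate number 1, 2 or 3 (the numbers do not pair the samples), on day 4 (blue circles) and day 8 (orange diamonds). Every day 4 point but those of Pfkfb3 lies above 0.5, while the day 8 points lie on both sides of 0, and Hk2 and Pfkfb4 stand at about the same height on both days.

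The other named fadings differed in which group moved. Csf3, the granulocyte colony-stimulating factor, was at 0.510, 0.809 and 0.604 FPKM in day 4 controls and 12.7, 7.88 and 15.2 FPKM with EGCG. It was at most 0.136 FPKM in both day 8 groups, where no library held more than 10 reads (interaction -2.84 ± 0.25, not called with voom on reads recovered from the FPKM). Csf3 passed the filter only through the day 4 EGCG cells, so its interaction is a description. Fndc1, a fibronectin type III protein, had 1.56 ± 0.216 FPKM in day 4 controls and 15.7 ± 1.67 with EGCG, and the controls were at 13.0 ± 4.23 FPKM on day 8. Tnfrsf18, the TNF receptor family member GITR, had 1.08 ± 0.145 and 8.57 ± 0.967 FPKM on day 4 and 2.81 ± 0.504 and 2.27 ± 0.493 FPKM on day 8. In Fndc1 the day 8 controls thus came near the day 4 EGCG cells, whereas in Csf3 and Tnfrsf18 the day 4 EGCG cells stood above the other 3 groups.

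Of the 32 strong fadings that were decreases on day 4, the 4 with the largest interaction were Olfml3, Apol8, Slc40a1 and Bcar3. Olfml3, a secreted olfactomedin-like protein of the matrix, was at 38.5, 38.1 and 40.1 FPKM in day 4 controls, at 7.94, 9.34 and 8.74 FPKM in day 4 EGCG cells, at 44.3, 33.9 and 41.3 FPKM in day 8 controls and at 39.6, 40.3 and 41.1 FPKM in day 8 EGCG cells. Only the day 4 EGCG cells stood apart (interaction 2.07 ± 0.12, adjusted p = 3.21e-07). Slc40a1, the iron exporter ferroportin, showed the reverse picture, with 15.1 ± 1.06 FPKM in day 4 controls and between 3.44 and 4.93 FPKM in every library of the other 3 groups (interaction 1.64 ± 0.14). Apol8 (apolipoprotein L 8) and Bcar3, an adaptor of integrin signalling, were likewise highest in the day 4 controls, at 5.90 ± 0.795 and 7.96 ± 0.325 FPKM. Apol8 passed the filter only through those controls, so its place in this class is a description.

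Most cell cycle genes had a positive interaction. Of 30 tested, 25 had a positive interaction and none a negative one (33.5% and 21.1% of all genes). The effect faded in 14, reversed in 6 and appeared in 3. On day 4, 22 were called lower with EGCG, where 22.0% of all genes were. On day 8, 10 were called higher and none lower, where 48.2% and 19.9% of all genes were. The median log2 change was -0.35 on day 4 and 0.14 on day 8, where all genes had 0.08 and 0.17. The median day 8 minus day 4 change was -1.60 in controls and -0.99 in EGCG cells. Plk1, a mitotic kinase, was at 9.36 and 4.54 FPKM in control and EGCG cells on day 4 and at 1.85 and 1.96 FPKM on day 8. Rrm2, the ribonucleotide reductase subunit, departed from this: it was at 18.8, 19.7 and 18.1 FPKM in day 4 controls, 19.2, 17.1 and 17.9 FPKM in day 4 EGCG cells, 3.71, 4.82 and 4.95 FPKM in day 8 controls and 14.9, 13.3 and 14.2 FPKM in day 8 EGCG cells (interaction 1.53 ± 0.12). With replicates 1 and 2 alone 16 of the genes were called, all positive.

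In mature adipocyte genes an existing decrease grew. Of 27 tested mature adipocyte genes, 25 had a negative and 1 a positive interaction (21.1% and 33.5% of all genes). In 23 the decrease grew, and the median change of the list went from -2.41 on day 4 to -4.32 on day 8. Retn, the adipokine resistin, was at 19.8, 17.6 and 34.4 FPKM in day 4 controls, 3.10, 3.43 and 3.08 FPKM in day 4 EGCG cells, 181, 257 and 239 FPKM in day 8 controls and 0.515, 0.694 and 0.275 FPKM in day 8 EGCG cells (interaction -4.73 ± 0.29). Cfd, adipsin, went in controls from 46.8 ± 12.7 to 611 ± 90.1 FPKM and was at 1.24 ± 0.0103 and 1.03 ± 0.160 FPKM in EGCG cells. The early transcription factors went another way. Cebpb was higher with EGCG on day 4 (0.89) and not called on day 8 (0.07), and Cebpd went from 0.43 to -0.86. Pparg was lower on both days (-1.62 and -2.67), Cebpa changed little more on day 8 (-2.34 and -2.68), Lpl was not called (-1.26 and -1.29), and Srebf1 was the 1 gene whose decrease shrank (-1.17 and -0.91).

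Of 25 interferon response genes 24 were called lower with EGCG on day 4 and 24 on day 8, with median changes of -1.23 and -2.19. The interaction was negative in 17 and positive in 2 (21.1% and 33.5% of all genes). How much of this growth comes from the scale, which understates changes of genes low on day 4, was not tested. The median day 8 minus day 4 change was 1.82 in controls and 1.06 in EGCG cells. Oas2, an antiviral oligoadenylate synthetase, had the largest interaction on this scale (-3.59), from 0.739 to 28.8 FPKM in controls and from 0.0201 to 0.462 FPKM in EGCG cells. Both day 4 means of Oas2 lay below the 1 FPKM that the scale adds, so its day 4 decrease is understated. The size of its interaction is therefore no measure of how far the ratio of EGCG to control changed between the days. Isg15 was positive (0.80), its decrease being smaller on day 8, and Ifit2 was the other (0.54). Ifit3, Bst2, Irf9, Ddx58 and Cd274 were among those not called. Of the collagen list 10 of 18 genes were negative and 1 positive, with Col3a1 and Col16a1 appearing as decreases on day 8 and Col5a3 reversing from 0.14 to -1.13.

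**Figure D4:**
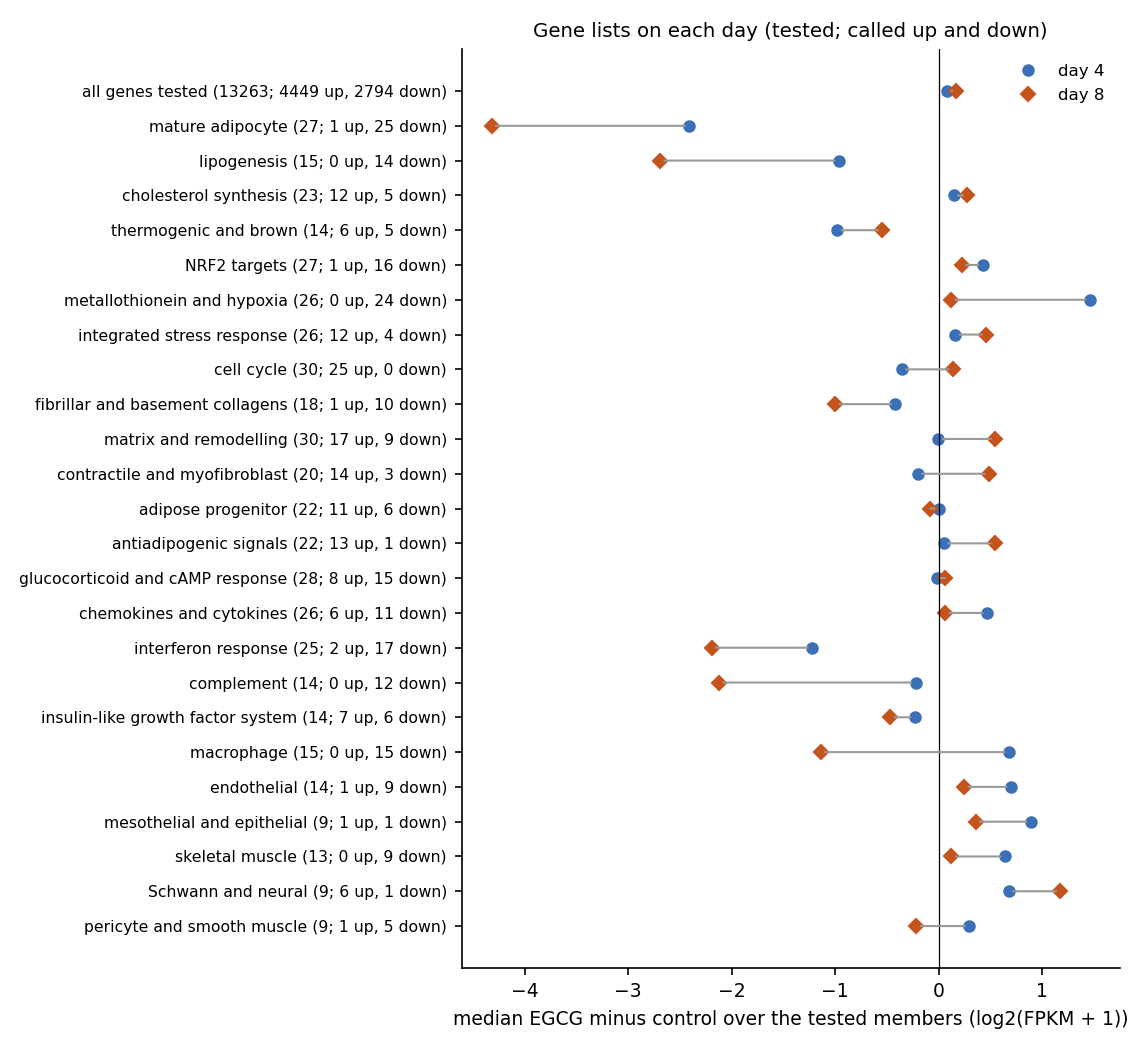
Median EGCG minus control difference (log2(FPKM + 1), x axis) over the tested members of each gene list with at least 9 of them (y axis; in brackets the number tested and the number with a positive, up, and negative, down, called interaction), on day 4 (circles) and day 8 (diamonds). The macrophage, contractile, cell cycle and pericyte lists cross 0, as do the matrix, adipose progenitor and glucocorticoid lists from day 4 medians close to 0. On day 8 the cell cycle median of 0.14 lies below the 0.17 of all genes. The metallothionein and hypoxia list returns to 0.12, and the adipocyte, lipogenesis and complement lists move further below 0.

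Of 20 contractile and myofibroblast genes, 14 had a positive and 3 a negative interaction (33.5% and 21.1% of all genes), and the median change went from -0.20 to 0.49. The median day 8 minus day 4 change was 0.64 in controls and 1.24 in EGCG cells, a rise in both. Tagln, transgelin, an actin-binding protein of smooth muscle and myofibroblasts, was at 76.1, 68.8 and 67.8 FPKM in day 4 controls and 35.6, 35.4 and 37.6 FPKM with EGCG, then at 193, 142 and 160 FPKM in day 8 controls and 312, 317 and 406 FPKM with EGCG (interaction 2.01 ± 0.16, adjusted p = 3.30e-06); it overlaps Pcsk7. Acta2, smooth muscle actin, reversed in the same way, from 87.0 ± 9.18 against 39.3 ± 1.98 FPKM to 192 ± 36.9 against 351 ± 50.8 FPKM. Myl9, a myosin light chain, faded (-1.39 and 0.06), Tpm1 appeared (-0.02 and 1.07), and Cnn1 and Myh11, which mark mature smooth muscle, were not called (interactions of 0.01 and -0.13). The negative genes were Cryab, a small heat shock protein, Des, the intermediate filament of muscle, and Smtn. Pericyte and smooth muscle markers did not follow the same course, with 1 positive and 5 negative interactions among 9.

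In the matrix and remodelling list 17 of 30 genes were positive and 9 negative, where 33.5% and 21.1% of all genes were. Ctgf (chr10:24315248-24318489), like Cyr61 a CCN protein and a target of YAP and of TGF-beta, had the largest value: 64.5, 53.8 and 74.3 FPKM in day 4 controls and 30.2, 29.4 and 45.4 FPKM with EGCG, then 88.2, 53.8 and 103 FPKM in controls and 292, 270 and 537 FPKM with EGCG on day 8 (interaction 3.00 ± 0.23, adjusted p = 2.44e-06). Fbln5 (an elastic fibre protein), Postn (periostin), Mmp11 and Fbn1 (fibrillin) also went from lower to higher. Mmp3, a metalloproteinase, faded from 1.53 to 0.02, and the elastin gene Eln fell further (-1.62 and -3.01). Of 22 antiadipogenic signals tested, 13 were positive and 1, Foxo1, negative; Snai2 and Dkk3 reversed to higher with EGCG on day 8.

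Among 28 glucocorticoid and cAMP response genes, whose stimuli were in the medium until day 4, 8 had a positive and 15 a negative interaction. Of all genes tested 33.5% had a positive and 21.1% a negative one. The acute phase genes Orm1, Saa3 and Lcn2 were negative: Saa3 was at 1361 ± 60.8 FPKM in day 4 controls and 850 ± 100 with EGCG, and at 716 ± 73.6 and 41.9 ± 7.56 FPKM on day 8. Orm1 had a mean of 56.7 FPKM in day 8 controls, with at most 4 reads in any EGCG library of either day. Sgk1 and Nr4a2 reversed to higher, and Nr4a1, an orphan receptor of the immediate early kind, appeared as an increase (0.47 and 1.96). Among 26 chemokines and cytokines 6 were positive and 11 negative (33.5% and 21.1% of all genes), with Ccl7 appearing and Ccl8 reversing as increases on day 8. Without WAT day 8 control replicate 1 there were 11 of each sign. Ccl8, a monocyte chemoattractant, was at 5.19, 4.02 and 4.66 FPKM in day 4 controls and 3.19, 1.55 and 3.51 FPKM with EGCG, then at 19.1, 11 and 16.4 FPKM in controls and 44.1, 52.8 and 64.7 FPKM with EGCG (interaction 2.37 ± 0.30).

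Targets of the oxidant sensor NRF2 mostly had a negative interaction. Of 27 tested, 16 were negative and 1 positive, the effect shrank in 9, and the median change went from 0.43 to 0.22. Hmox1, heme oxygenase, remained raised at 2.55 and 2.05, Gclc at 1.86 and 1.30 and Srxn1 at 1.67 and 0.95, while Txnrd1 was not called (-0.07). The most negative members, Gsta3, Me1, Tkt and G6pdx, were lower with EGCG on day 8 (-4.72, -4.10, -1.64 and -1.51) and also serve fat cell metabolism. Cholesterol synthesis had 12 positive and 5 negative interactions among 23 genes, with Pmvk the most negative (-1.05). Of all genes tested 33.5% were positive and 21.1% negative, and the negative share of this list was near the latter. The lists that follow, with both signs, are to be read beside the same shares. In the insulin-like growth factor system 7 were positive and 6 negative among 14: beside Igfbp3, Igfbp4 appeared as a decrease (-0.30 and -1.98) and Igfbp5 as an increase (-0.16 and 1.56), and Igf2 reversed (-1.02 and 0.60). Of 14 thermogenic genes tested 6 were positive and 5 negative, and Cox7a1, a subunit of cytochrome c oxidase, reversed from 0.69 to -1.22. H2-Ab1, an MHC class II chain, was the 1 of 3 tested genes of its list to be called, at 3.96 and 1.12. Neither of the 2 proliferin genes tested was called, with day 4 changes of 3.44 for Prl2c2 and 1.80 for Prl2c3 and day 8 changes of 3.70 and 1.34.

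Markers of other cell types in the SVF also depended on the day. Of all genes tested 33.5% had a positive and 21.1% a negative interaction, beside which the counts below are to be read. Endothelial markers were called higher with EGCG in 12 of 14 on day 4 (38.0% of all genes) and in 6 on day 8 (48.2%), when 2 were called lower, with 9 negative and 1 positive interactions, and summed to 44.1 to 56.5 FPKM in day 4 controls, 91.3 to 103 in day 4 EGCG cells, 60.8 to 65.2 in day 8 controls and 80.8 to 96.6 in day 8 EGCG cells. Skeletal muscle markers had 9 negative interactions among 13, and their sum was 98.2 to 111 FPKM in day 4 controls, 170 to 176 with EGCG, 56.3 to 70.2 in day 8 controls and 67.7 to 75.8 with EGCG. Schwann and neural markers had 6 positive and 1 negative interactions among 9. Mesothelial and epithelial markers had 1 of each among 9. Adipose progenitor markers were split, 11 positive and 6 negative among 22, with F3 the most positive and Ly6a, the surface antigen Sca-1, the most negative (1.53 on day 4, -0.92 on day 8). No trophoblast marker passed the filter, and 1 testis marker, Gapdhs, did and was reversed (0.41 and -0.39). This reversal rests on replicates 1 and 2, which alone gave 0.62 and -0.58. In replicate 3 the whole testis list summed to at most 0.785 FPKM in any group. The part of shifts in cell types in the interactions of other genes was not tested.

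The interaction was compared with that of BAT cells in a fit of all 24 libraries. It differed between depots for 4616 of 13925 genes (33.1%) at an adjusted p under 0.05. Of the strong WAT classes, 14 of 23 reversals, 99 of 204 appearances and 61 of 113 fadings differed in this way, and 4, 64 and 16 fell into the same class in BAT cells; these genes were chosen for large changes in WAT cells, so the shares are descriptions. Several of the largest negative interactions did not differ between depots at this threshold. Rarres2 had an interaction of -4.84 ± 0.15 in BAT cells (WAT minus BAT -0.15 ± 0.21, adjusted p = 0.623), A2m one of -5.07 ± 0.24, Ndufa4l2 one of -4.35 ± 0.15 and Igfbp3 one of -2.96 ± 0.17. WAT minus BAT was 0.31 for A2m, 0.41 for Ndufa4l2 and -0.10 for Igfbp3. In BAT cells, however, Rarres2 was already lower with EGCG on day 4, at means of 12 against 20.8 FPKM.

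Of the 20 genes of the contractile list 15 differed between depots, all with the higher interaction in WAT cells, and the median interaction was 0.59 in WAT and -0.83 in BAT cells, where all tested genes had 0.08 and 0.13. Tagln differed by 2.93 ± 0.23 (adjusted p = 5.94e-08) and Acta2 by 2.94 ± 0.28. In BAT cells EGCG raised both on day 4 already, Tagln from 53.2 to 333 FPKM and Acta2 from 57.6 to 387 FPKM, and on day 8 they were at 186 and 607 FPKM and at 251 and 862 FPKM. Ctgf and Cyr61 followed the same pattern, with BAT interactions of 0.24 ± 0.21 and -0.20 ± 0.14 that were not called and differences between depots of 2.76 ± 0.30 and 2.76 ± 0.19. The day 4 decrease followed by a day 8 increase of these genes was thus measured in WAT cells, while in BAT cells they were higher with EGCG on both days.

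**Figure D5:**
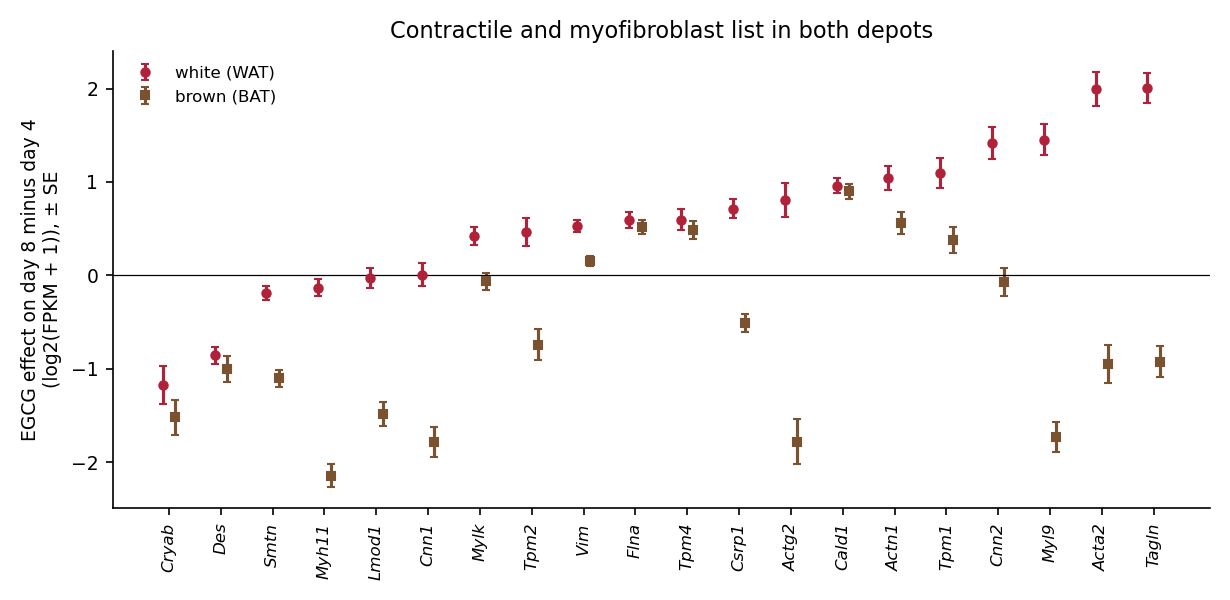
Interaction (EGCG effect on day 8 minus day 4, log2(FPKM + 1), y axis) of the 20 contractile and myofibroblast genes (x axis) in WAT cells (circles; fit of 12 libraries) and BAT cells (squares; fit of 24 libraries), with bars of 1 SE. Tagln and Acta2 lie near 2 in WAT cells and near -0.9 in BAT cells, while Cald1, Flna and Tpm4 lie close together.

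Other genes whose course differed were Chac1, Reg1 and Olfml3. Chac1 had an interaction of -0.59 ± 0.21 in BAT cells (adjusted p = 0.0191), opposite in sign to that in WAT cells, and differed by 2.54 ± 0.29 (adjusted p = 2.92e-06). Reg1 was at most 2.85 FPKM on average in any BAT group, and its interaction differed by -3.27 ± 0.40. Olfml3 had a BAT interaction of 0.27 ± 0.11, with a difference of 1.80 ± 0.15. Of the interferon list 13 of 25 genes differed, all with the lower interaction in WAT cells (medians -0.74 and -0.06), and of the NRF2 targets 13 of 27, with 12 of them lower in WAT cells. Saa3 differed by -3.13 ± 0.27, having an uncalled BAT interaction of -0.26 ± 0.19.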

How the data were processed

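The authors deposited FPKM values per gene in 2 tables, replicates 1 and 2 of every group in one and replicate 3 in the other. The submitters' processing notes name FastQC 0.11.9, HISAT2 2.2.0, HTSeq 0.11 and the mm9 assembly; the strand setting is not given in the sources used here, so overlapping genes could not be told apart. Values came back to whole reads through gene length, which gave the depth. Genes with an FPKM of at least 1 in at least 3 of 12 WAT libraries were tested on log2(FPKM + 1), a scale that understates changes of low genes, with limma 3.58.1 in R 4.3.3 and a term for the table; p-values were adjusted by Benjamini-Hochberg over all genes tested. In WAT day 8 EGCG replicate 3 the 5 genes named above were left out and the rest rescaled. WAT and BAT cells were compared in 1 fit of all 24 libraries. On data simulated with known changes, 99.0% of 199 changed genes and 18 of 12469 unchanged genes were called. The simulation gave all groups a common dispersion (0.0023), few changed genes and no difference between the tables. Its rates therefore need not hold for these libraries, where the WAT day 8 controls were the most variable. Genes were named as the 4 with the largest interaction per class and direction among strong members with a mean of at least 5 FPKM in the highest group and the same sign in replicates 1, 2 and 3 (the reversed class upward held 3), with up to 4 called members of each list; other list members were named with their values. Members and 28 gene lists (564 of 567 entries matched, 5 through synonyms) were chosen with earlier results of these data known. Counts of list members under other scalings or without single libraries were added after the data were seen. Promoter sequences came from RefSeq. Some named genes and list members are not reported here.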

Additional observations from a re-analysis of the deposited data

Results flagged for a closer look

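The effect of EGCG differed between days 4 and 8 in WAT cells for 7243 genes by the test of the interaction. The interaction itself differed between WAT and BAT cells for 4616 genes. Among the named genes, Chac1 had interactions of opposite sign in the depots, both called, with a difference of 2.54. In WAT day 8 EGCG replicate 3, 25426254 reads lay on the 5 genes that were left out of every comparison, and the source of these reads was not tested.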

How the results depend on the processing

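Of 563 interactions of the 23 named genes under 26 settings, 562 kept their direction and their side of the threshold and 548 also kept the class of the gene, and that of Csf3 was -2.45 and not called with voom. With WAT day 8 EGCG replicate 3 as deposited, 1372 interactions, 2043 day 4 effects and 2453 day 8 effects were called, with 120 reversed, 548 appeared, 389 faded, 192 grown and 32 shrunken genes and 328 strong appearances and 182 strong fadings. A log2 interaction of at least 1 in size left 990 genes, 340 of them reversed, 209 appeared and 118 faded. With replicates 1 and 2 alone there were 817 reversed, 1006 grown and 379 shrunken genes, and without a table term 754, 1042 and 409. A minimum of 5 FPKM left 833 faded genes and 108 strong appearances. A pseudocount of 0.1 gave 59 strong reversals and 228 strong fadings, and voom 68 and 261. Why these counts moved was not tested.

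Leaving out 1 library or replicate number gave 5352 to 7292 interactions, 6396 to 8208 day 4 and 7553 to 9009 day 8 effects, 790 to 1345 reversed, 1964 to 2542 appeared, 1025 to 1382 faded, 974 to 1869 grown and 379 to 670 shrunken genes. Strong reversals numbered 20 to 28, strong appearances 118 (without WAT day 8 control replicate 2) to 251 and strong fadings 93 to 162. The difference between depots was called for 2862 to 3171 genes. Quantile normalization gave 3931 positive and 2851 negative interactions. With the replicate number as a replicate block 7181 interactions were called; deviations of equally numbered samples correlated at -0.149 to 0.130, so the numbers were not taken to pair the samples. The same sign in replicates 1, 2 and 3, asked of the named genes, rests on differences between equally numbered libraries and is no independent support.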
